A study of Mus musculus with 33 samples.

Results

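The libraries compared here come from mouse embryonic fibroblasts on their way to pluripotency. Cells that had lost the fibroblast antigen Thy1 and gained the carbohydrate antigen SSEA1 were set against cells of the same culture day and arm that had kept Thy1 and had no SSEA1. Both gates were negative for the Oct4-GFP reporter. The members are the 8 libraries, of 33 samples in the series, that fall into 4 such pairs: the control arm on days 8 and 14 and the Dppa2/4 arm on days 8 and 14. They were picked by the gate, arm and day in their labels and by no measured value. Below, SSEA1+ cells stands for the GFP-, Thy1-, SSEA1+ gate and Thy1+ cells for the GFP-, Thy1+, SSEA1- gate. Values per library are given in the order control day 8, control day 14, Dppa2/4 day 8 and Dppa2/4 day 14.

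All 8 libraries share the genotype Col1a1-OSKM+/-; Rosa26-rtTA+/-; Oct4-GFP+/-, that is 1 copy each of a tetO cassette of Pou5f1, Sox2, Klf4 and Myc (OSKM) at Col1a1, of the reverse tetracycline activator rtTA-M2 at Rosa26 and of GFP at Pou5f1, on a cross of B6 and 129S4 backgrounds. The fibroblasts were primary, from embryos at 14 to 15 days post coitum, and were transduced with lentivirus before doxycycline at 1 µg/ml switched the cassette on. In the Dppa2/4 arm the virus carried Dppa2 and Dppa4, a linked pair of genes for nuclear proteins active in pluripotent and germ cells, and in the control arm a control. The cassette is under doxycycline in every cell, so the levels of the 4 factors below add transgene and endogenous transcripts. The labels do not say how many embryos or separate transductions lie behind an arm. Each arm, day and gate is 1 library, so the p-values below measure how alike the gate difference was over 2 arms and 2 days, not over independent cultures.

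Reprogramming fibroblasts first shut down mesenchymal genes and take up epithelial ones, then reactivate the pluripotency network. Thy1 is lost early, SSEA1 appears on a part of the Thy1- cells, and the endogenous Pou5f1 locus comes on late. Cells that hold on to Thy1 rarely give rise to colonies and are therefore called refractory, while SSEA1+ cells are enriched for those that go on. SSEA1 is the Lewis X sugar, made by fucosyltransferases of the Fut4 and Fut9 genes, so it is not itself a transcript.

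The implied depth, in mega-fragments, was 31.1 to 34.7 in the SSEA1+ libraries (median 32.3) and 25.1 to 35.3 in the Thy1+ libraries (median 29.1). Libraries of the same gate correlated at 0.857 to 0.928 over genes, and the lowest correlation among all 8 was 0.752. The control day 14 SSEA1+ library stood apart from the other SSEA1+ libraries in fibroblast genes: its Thy1 was 67.2 FPKM (fragments per kilobase of transcript and per mega-fragment of depth), against 6.27 to 11.9 in the other 3, and its Col1a1 was 97.2 FPKM, against 15.8 to 18.4. Results are therefore given without its pair wherever that moved them. In such bulk libraries fewer cells of a type and less RNA per cell cannot be told apart. Defining markers of several other cell types were below 1 FPKM in all 8 libraries: Ptprc of leukocytes, Cdh5, Kdr and Tie1 of endothelium, Krt5 of basal epidermis, Myod1 and Myog of muscle, Sox10 of neural crest, Cdx2 of trophoblast, and Gata6, Sox17 and Foxa2 of endoderm. Other markers of these types were not all low: Tek of endothelium was 4.50 to 13.2 FPKM in SSEA1+ and 5.65 to 33.0 in Thy1+ cells, and Des of muscle 3.49 to 19.07 against 0.205 to 12.5 FPKM. Tubb3 and Gfap of neural cells and Gata4 of endoderm reached 8.02, 4.23 and 3.59 FPKM. Of trophoblast, Hand1 was 0.520 to 5.07 FPKM in SSEA1+ and 0.0491 to 13.4 in Thy1+ cells, and Elf5 and Eomes reached 7.48 and 3.02. Krt14 and Trp63 of epidermis reached 1.66 and 1.20 FPKM. The summed level of 11 immune markers was 6.59 to 124 FPKM in SSEA1+ and 12.9 to 69.6 in Thy1+ cells, mostly Cd68 (4.06 to 82.6 against 5.70 to 25.9 FPKM) and Lyz2 (0.546 to 37.5 against 1.56 to 28.0 FPKM). Their part in the results was not tested.

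SSEA1+ cells expressed pluripotency, epithelial and cell cycle genes at higher levels and extracellular matrix, contractile and mesenchymal genes at lower levels than Thy1+ cells. Of 15196 genes tested, 1607 were higher in SSEA1+ cells (10.6%) and 2049 were lower (13.5%) at an adjusted p below 0.05 in limma, on log2(FPKM + 1) with the pair as a block. At least a 2-fold difference on that scale was reached by 937 of the former and 1523 of the latter. The direction was the same in all 4 pairs for 1589 and 2033 of them. The median difference over all genes tested was -0.04. The shares of 10.6% higher and 13.5% lower are the background for the counts of each list below. Differences below are SSEA1+ minus Thy1+ on this log2 scale, with the standard error (SE), and the count of a list is followed by its counts with each pair left out in turn, in the order of the values. A difference of at least 4-fold in each of the 4 pairs was seen in 39 genes upward (0.257% of those tested) and 75 downward (0.494%). In 1374 genes every SSEA1+ library lay above every Thy1+ library (9.04%), and in 1816 every one lay below (12.0%). The counts of calls leaned on the control pairs: they were 349 higher and 758 lower without control day 8, 310 and 696 without control day 14, and 893 and 1423 without Dppa2/4 day 14. Without the pair block they were 736 and 1057, with day 8 alone 50 and 179, with the Dppa2/4 arm alone 324 and 626, and with no filter on low levels 0 and 0 in limma (7430 of 26160 genes at an unadjusted p below 0.05). No gene called in the full set was called in the other direction under any of these. FPKM differences on this scale understate the change of genes at low levels.

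**Figure D1:**
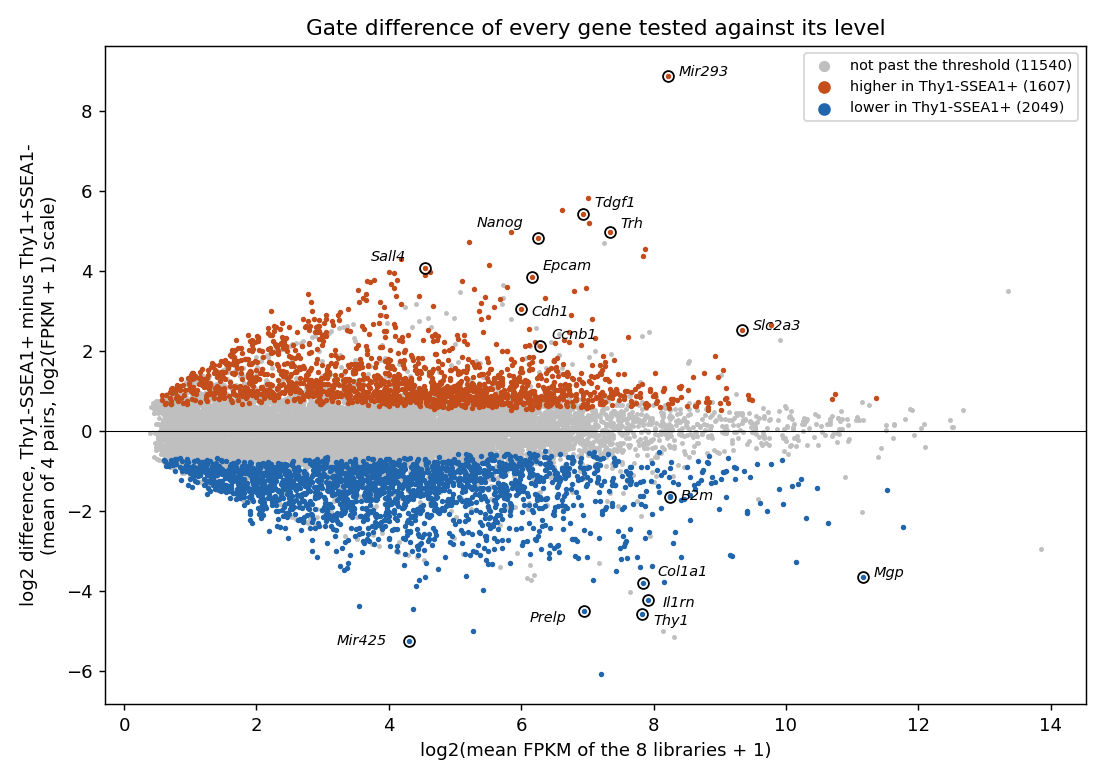
Difference between the gates for every gene tested, against its mean level (both axes log2). Each point is a gene, red where higher and blue where lower in SSEA1+ cells at an adjusted p below 0.05. Tdgf1, Nanog and Trh lie at 5.42, 4.83 and 4.98, and Thy1, Prelp and Il1rn lie at -4.57, -4.51 and -4.23.

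Thy1 and SSEA1 chose the gates, so their genes are a check and not a result. Thy1 was 6.27, 67.2, 10.3 and 11.9 FPKM in SSEA1+ cells and 447, 749, 244 and 278 in Thy1+ cells, with no overlap. Fut9 was 5.47, 5.38, 5.26 and 15.3 FPKM against 0.204, 0.211, 1.02 and 1.13, again without overlap. Fut4, the other enzyme able to make the epitope, was low in both gates, at 0.284, 0.408, 1.07 and 0.882 against 0.356, 0.606, 1.14 and 1.05 FPKM, and did not pass (log2 difference -0.11, SE 0.18, adjusted p = 0.667).

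Among the 4 reprogramming factors, Pou5f1 and Sox2 were higher in SSEA1+ cells and Klf4 and Myc did not pass. Pou5f1 was 789, 881, 491 and 315 FPKM in SSEA1+ and 409, 213, 276 and 78.3 in Thy1+ cells, a log2 difference of 1.45 (SE 0.27, adjusted p = 0.0186). It was higher in each pair, but the gates overlapped across pairs. Sox2 was 69.2, 61.1, 10.9 and 32.3 against 12.1, 7.12, 3.998 and 3.30 FPKM, a difference of 2.39 (SE 0.32, adjusted p = 0.0116). Klf4 was 50.4, 30.8, 29.5 and 10.6 against 40.4, 24.6, 23.3 and 9.21 FPKM, lower on day 14 than on day 8 in both gates of each arm, and differed by 0.28 (SE 0.15, adjusted p = 0.215). Myc was 116, 57.5, 109.96 and 13.9 against 132, 91.3, 78.9 and 35.2 FPKM and differed by -0.41 (SE 0.29, adjusted p = 0.329). Pou5f1 did not pass without control day 14 (adjusted p = 0.0553).

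Nanog (ENSMUSG00000012396, chr6:122707489-122714633), the homeodomain factor at the core of the pluripotency network, was 232, 161, 123 and 74.1 FPKM in the 4 SSEA1+ libraries and 2.75, 3.57, 4.58 and 4.69 in the 4 Thy1+ libraries. The lowest SSEA1+ value was thus far above the highest Thy1+ value, and the control arm held the higher SSEA1+ levels. The log2 difference was 4.83 (SE 0.37, adjusted p = 0.0091), and Nanog passed whichever pair was left out. Of 17 pluripotency transcription factors tested, 14 were higher (8, 10, 16 and 12 with each pair left out in turn) and 0 lower, with a median difference of 2.78 against -0.04 over all genes. All but Tbx3, which was lower in the Dppa2/4 day 8 pair, were higher in each of the 4 pairs. Sall4, a zinc finger factor of stem and germ cells, was 84.8, 48.5, 22.2 and 18.04 against 0.947, 0.72, 1.37 and 1.91 FPKM (log2 difference 4.08, SE 0.48, adjusted p = 0.0102). Esrrb, an orphan nuclear receptor of naive pluripotency, was 62.6, 77.8, 12.1 and 21.4 against 0.34, 2.20, 1.05 and 2.33 FPKM (log2 difference 3.90, SE 0.53, adjusted p = 0.0116), again without overlap. Zfp42 (Rex1), a late marker, was 14.9, 30.98, 1.17 and 17.7 FPKM in SSEA1+ cells, with the lowest value in Dppa2/4 day 8, against 0.183, 1.22, 0.368 and 1.56 in Thy1+ cells, so the gates overlapped. Tfcp2l1, Nr0b1, Prdm14, Tfap2c, Utf1 and Zscan10 differed by 2.87, 3.23, 2.56, 3.59, 3.06 and 3.43. Klf5, Nr5a2 and Tbx3 did not pass, at 0.74, 2.13 and 1.01. Otx2, Klf2 and Sall1 were higher by 2.51, 1.83 and 1.06. Zfp42 and Otx2 did not pass without control day 8, control day 14 or Dppa2/4 day 14 (adjusted p up to 0.117). Prdm14 and Utf1 did not pass without control day 8 (adjusted p up to 0.0685). Klf2 and Sall1 did not pass without control day 8 or control day 14 (adjusted p up to 0.102).

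Of 21 other pluripotency genes, 18 were higher (9, 13, 17 and 13 with each pair left out in turn) and 0 lower, with a median of 2.44. Tdgf1 (ENSMUSG00000032494, chr9:110939603-110946158), the Nodal co-receptor Cripto, had the largest upward difference of the protein-coding genes tested, with 293, 334, 81.2 and 248 FPKM in SSEA1+ and 1.30, 6.31, 2.96 and 8.15 in Thy1+ cells (log2 difference 5.42, SE 0.43, adjusted p = 0.00995). Nodal and its inhibitors were also higher: Nodal, the ligand, was 2.58 to 12.6 against 0.343 to 0.86 FPKM (log2 difference 2.13), and Lefty2 and Lefty1 differed by 3.98 and 1.26. Lefty2 was 26.6, 23.01, 85.2 and 45.9 FPKM against 0.157, 0.52, 6.16 and 2.39 and kept its call without any pair. Dppa5a was 115, 1139.97, 12.6 and 497 against 0.468, 27.3, 2.23 and 34.6 FPKM (log2 difference 4.38, SE 0.66, adjusted p = 0.0136), with day 14 above day 8 in both gates, so that the gates overlapped although each pair differed upward. Alpl, the alkaline phosphatase stained in stem cell colonies, was 67.5, 163, 96.1 and 143 against 16.98, 10.1, 26.2 and 23.9 FPKM (log2 difference 2.54, SE 0.36, adjusted p = 0.0123). Mybl2, a cell cycle factor of stem cells, was 75.6 to 243 against 10.2 to 13.8 FPKM (log2 difference 3.32), and Eras, a Ras protein of stem cells, 14.96 to 26.9 against 0.408 to 2.86 FPKM (log2 difference 3.23). Lin28b and Upp1 were among those that did not pass, at 0.74 and 0.16. Nanog and Dppa5a have near-identical processed copies elsewhere in the genome, and how reads were divided among copies is not given in the sources used here. Lefty1 did not pass whichever of the 4 pairs was left out (adjusted p up to 0.106).

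**Figure D2:**
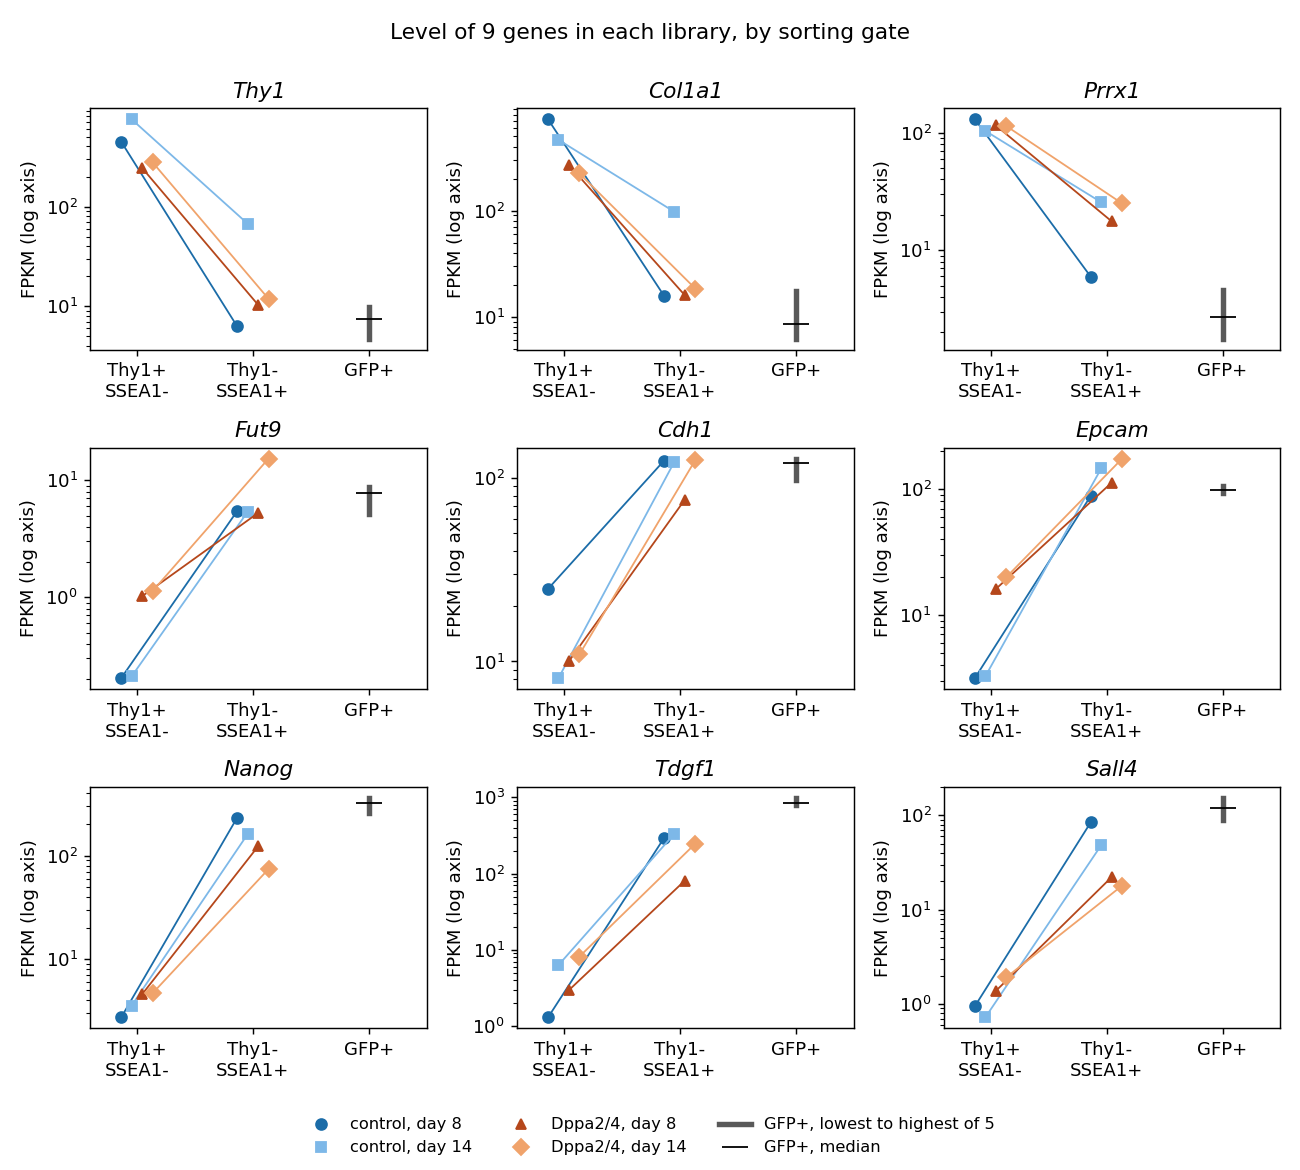
Level of fibroblast, glycosyltransferase, epithelial and pluripotency genes in each library (y axis, FPKM on a log scale), by gate. Symbols joined by a line are a pair of the same arm and day, and the grey bar gives the range and the black mark the median of 5 GFP+ libraries. Thy1 and Col1a1 fall in every pair with control day 14 highest in the SSEA1+ gate, and Nanog, Sall4 and Tdgf1 rise in every pair but stay below the GFP+ median.

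The microRNA cluster miR-290 to miR-295 on chromosome 7 is known for its expression in pluripotent cells. Most of the 3p strands shown here carry closely related seeds (bases 2 to 8), which set the targets, but miR-293-3p does not. The cluster is shown because the hairpin gene Mir293 had the largest upward difference of all genes tested. The seeds are in capitals, from RefSeq (GRCm38.p6, plus strand).
mmu-miR-291a-3p, chr7:3218968-3218989: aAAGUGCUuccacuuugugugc
mmu-miR-294-3p, chr7:3220691-3220712: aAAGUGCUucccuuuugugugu
mmu-miR-295-3p, chr7:3220815-3220837: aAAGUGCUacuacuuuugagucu
mmu-miR-290a-3p, chr7:3218674-3218697: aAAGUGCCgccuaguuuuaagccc
mmu-miR-291b-3p, chr7:3219529-3219550: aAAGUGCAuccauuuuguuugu
mmu-miR-293-3p, chr7:3220390-3220411: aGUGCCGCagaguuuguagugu
The seed AAGUGCU is shared by miR-291a-3p, miR-294-3p and miR-295-3p, and those of miR-290a-3p and miR-291b-3p differ from it in their last base, while that of miR-293-3p is another. The libraries were made from polyA RNA, so fragments over these hairpin genes come from longer transcripts and the mature microRNAs were not measured. Mir293 was 486, 1089, 141 and 653 FPKM in SSEA1+ cells and listed at 0 in all 4 Thy1+ libraries. Multiplied by the implied depth, the SSEA1+ values stood to one another about as 10, 25, 3 and 14. These are the smallest whole numbers that fit, so the fragment counts may be multiples of them. A short gene has a high FPKM per fragment. Mir292 was 42.6, 534, 0 and 449 FPKM and listed at 0 in the Thy1+ libraries, and Mir291b was 52.04, 187, 0 and 49.9 and also listed at 0 there. Mir295 was 1058, 4004, 0 and 1466 FPKM against 128, 207, 0 and 145, and Mir294 was 75.2, 236, 0 and 36.04 against 0, 66.3, 0 and 0 and did not pass (adjusted p = 0.0611). The Dppa2/4 day 8 SSEA1+ library was listed at 0 for each of these but Mir293, and had the lowest value of that gene. Mir290 was at 0, 71.7, 0 and 0 FPKM against 0, 35.3, 0 and 0, above 0 only in the control day 14 pair. Mir292, Mir291b and Mir295 did not pass without control day 8, control day 14 or Dppa2/4 day 14 (adjusted p up to 0.109).

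Epithelial genes were broadly higher in SSEA1+ cells. Of 30 junction and polarity genes tested, 25 were higher (15, 15, 22 and 19 with each pair left out in turn) and 0 lower, with a median difference of 1.75. Cdh1 (ENSMUSG00000000303, chr8:106603351-106670246), which encodes E-cadherin, was 124, 122, 76.1 and 125 FPKM in SSEA1+ and 24.8, 8.11, 10.03 and 10.9 in Thy1+ cells, without overlap (log2 difference 3.06, SE 0.27, adjusted p = 0.0101). Epcam, an adhesion molecule of epithelia and stem cells, was 88.6, 146, 113 and 175 against 3.14, 3.24, 16.03 and 19.9 FPKM (log2 difference 3.84, SE 0.42, adjusted p = 0.0101), and its Thy1+ level was higher in the Dppa2/4 arm. The tight junction genes Cldn4, Cldn6 and Cldn7 differed by 3.20, 3.75 and 3.56. Esrp1, a splicing factor of epithelial isoforms, was 9.78 to 31.003 against 0.278 to 1.23 FPKM (log2 difference 3.75, SE 0.32, adjusted p = 0.0101). Ap1m2, a subunit of the epithelial sorting adaptor, was 24.4, 46.1, 14.5 and 31.7 against 0.106, 0.395, 0.889 and 2.28 FPKM (log2 difference 3.99, SE 0.38, adjusted p = 0.0101). Grhl2 and Grhl3, transcription factors of epithelia, differed by 1.98 and 2.48, and Rab25, a GTPase of apical recycling, by 3.0. Among those that did not pass were Cldn3, Prss8 and Lsr, at 0.58, 1.26 and 1.38. Cldn7 did not pass without control day 8 (adjusted p = 0.0502).

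The letters CACCTG, an E-box that repressors of the Snail and Zeb families are known to bind, were looked for on either strand in RefSeq promoters, 250 bases before to 50 after the start. RefSeq promoters were at hand for 20 of the 30 epithelial genes, and 17 of these 20 held the letters (85.0%). Of all 27025 promoters 20.0% did, of those of tested genes 17.4%, of genes called higher 19.8% and of genes called lower 14.0%. Upstream stretches of 8 of these genes are shown as a description. These genes and, below, the Snail and Zeb genes differed between the gates, and a link between them was not tested. Each stretch is read 5′ to 3′ on the gene's strand (GRCm38.p6), with the letters or their reverse complement CAGGTG in capitals.
Epcam, chr17:87635780-87635977, plus strand: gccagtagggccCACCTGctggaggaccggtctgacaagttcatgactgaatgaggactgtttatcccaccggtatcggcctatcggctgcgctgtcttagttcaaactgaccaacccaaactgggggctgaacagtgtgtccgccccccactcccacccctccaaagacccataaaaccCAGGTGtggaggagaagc
Crb3, chr17:57062071-57062200, plus strand: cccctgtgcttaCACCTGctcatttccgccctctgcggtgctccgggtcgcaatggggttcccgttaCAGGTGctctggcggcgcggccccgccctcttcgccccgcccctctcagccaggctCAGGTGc
Spint2, chr7:29281978-29282063, minus strand: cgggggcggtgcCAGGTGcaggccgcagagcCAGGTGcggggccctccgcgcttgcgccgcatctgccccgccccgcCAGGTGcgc
Ap1m2, chr9:21312334-21312426, minus strand: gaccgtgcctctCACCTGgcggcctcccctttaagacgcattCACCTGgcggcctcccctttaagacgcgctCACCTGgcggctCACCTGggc
Rab25, chr3:88548315-88548355, minus strand: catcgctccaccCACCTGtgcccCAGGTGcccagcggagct
Cldn4, chr5:134946935-134946960, minus strand: ctttaactgcagCACCTGtggccgcc
Cldn6, chr17:23679260-23679289, plus strand: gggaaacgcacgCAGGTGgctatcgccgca
Grhl3, chr4:135573634-135573663, minus strand: agttaacatctgCACCTGctgtggtctagc
Ap1m2 holds 4 matches before its start, Crb3 and Spint2 hold 3 each, and Epcam and Rab25 hold 2. Of the genes not shown, Pard6b holds 2, and Lsr holds 4 as well but did not pass between the gates (log2 difference 1.38, SE 0.49, adjusted p = 0.0866). In SSEA1+ cells Crb3, a polarity protein, was 7.89 to 21.6 FPKM against 0.897 to 2.85 (log2 difference 2.38), and Spint2, a protease inhibitor, 86.3 to 161 against 24.8 to 75.6 (log2 difference 1.27). Spint2 did not pass without control day 8 or control day 14 (adjusted p up to 0.0692). The match of letters is a description and binding was not measured in these libraries.

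Desmosome and keratin genes were less uniform. Of 14 tested, 5 were higher (2, 3, 5 and 4 with each pair left out in turn) and 0 lower, with a median of 0.78. The 5 were Dsp, Dsg2, Pkp1, Perp and Sfn, at 2.11, 2.13, 0.95, 1.15 and 2.68. Dsp, the plakin that ties desmosomes to keratin filaments, was 13.6, 21.5, 15.6 and 43.2 FPKM against 3.62, 1.87, 6.19 and 6.35 and kept its call without any pair. The simple-epithelium keratins varied widely between pairs: Krt8 was 79.7, 223, 65.6 and 109 FPKM in SSEA1+ and 16.01, 8.32, 34.02 and 61.9 in Thy1+ cells and did not pass (log2 difference 2.14, SE 0.63, adjusted p = 0.0531). Krt18 and Krt19 did not pass either, at 0.81 and 0.46. Pkp1 did not pass whichever of the 4 pairs was left out (adjusted p up to 0.16). Perp did not pass without control day 8 or control day 14 (adjusted p up to 0.0547). Sfn did not pass without control day 8 (adjusted p = 0.0562).

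Mesenchymal transcription factors, among them the Snail and Zeb repressors, were lower in SSEA1+ cells. Of 17 mesenchymal transcription factors, 0 were higher and 15 were lower (12, 12, 13 and 14 with each pair left out in turn), with a median of -1.73, and all 17 were lower in each of the 4 pairs. Snai2 (Slug) was 0.716, 2.83, 0.584 and 2.78 FPKM in SSEA1+ and 9.13, 11.2, 10.9 and 14.9 in Thy1+ cells (log2 difference -2.31, SE 0.26, adjusted p = 0.0101). Zeb1 was 2.73, 5.56, 4.52 and 6.41 against 21.01, 19.13, 18.8 and 18.5 FPKM (log2 difference -1.86, SE 0.24, adjusted p = 0.0115), with Thy1+ values that lay close together. Snai1 differed by -1.51 and Zeb2 by -1.26. Twist1, a bHLH factor of mesenchyme, was 1.92, 8.94, 3.94 and 4.73 against 26.5, 32.4, 19.5 and 19.2 FPKM (log2 difference -2.21, SE 0.29, adjusted p = 0.0115). Prrx1, a homeobox gene of limb and trunk mesenchyme, was 5.93, 25.6, 17.6 and 24.98 against 130.2, 104, 116 and 114 FPKM (log2 difference -2.76, SE 0.39, adjusted p = 0.0123), lowest in the control day 8 SSEA1+ library. Its relative Prrx2 differed by -2.84, and the skeletal factors Runx1 and Runx2 by -1.74 and -2.10. Foxc2 and Osr2 did not pass, at -0.43 and -0.79, with Foxc2 at 0.0472 to 0.928 against 0.708 to 1.15 FPKM and Osr2 at 0.117 to 0.719 against 0.411 to 2.13. Zeb2 did not pass whichever of the 4 pairs was left out (adjusted p up to 0.0741).

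Extracellular matrix genes were lower, and the collagens had the lowest median of the 46 lists. Of 16 collagen genes tested, 0 were higher and 15 lower (13, 13, 14 and 12 with each pair left out in turn), with a median of -2.77. Col1a1 (ENSMUSG00000001506, chr11:94936224-94953042), a chain of the fibrillar collagen of connective tissue, was 15.8, 97.2, 15.9 and 18.4 FPKM in SSEA1+ and 724, 464, 269 and 224 in Thy1+ cells (log2 difference -3.80, SE 0.48, adjusted p = 0.011). Its partner chain Col1a2 was 16.6, 116, 26.2 and 25.4 against 716, 739, 349.9 and 283 FPKM (log2 difference -3.78, SE 0.42, adjusted p = 0.0101), and neither gene overlapped between gates. The difference in the control day 14 pair was the smallest for both, with the pairs of Col1a1 at -5.43, -2.24, -3.99 and -3.53. Col3a1 and Col6a3 differed by -3.50 and -3.15. Col18a1 alone did not pass, at -0.06 (37.9 to 74.3 against 23.6 to 96.7 FPKM). By pair, the collagen median was -4.44, -2.01, -2.78 and -2.33.

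Of 25 matrix glycoprotein and proteoglycan genes, 21 were lower (16, 19, 18 and 18 with each pair left out in turn) and 0 higher, with a median of -2.31. Fbln5, an elastic fibre protein, was 2.10, 12.5, 2.62 and 2.21 against 110.04, 102, 63.7 and 39.1 FPKM (log2 difference -3.97, SE 0.36, adjusted p = 0.0101), and Aspn, a small leucine-rich proteoglycan, 1.60, 6.62, 0.512 and 2.66 against 46.9, 30.2, 26.2 and 27.7 FPKM (log2 difference -3.34, SE 0.40, adjusted p = 0.0104). Among 19 matrix proteases and inhibitors, 17 were lower (15, 15, 16 and 17 with each pair left out in turn) and 0 higher, with a median of -2.34. Serpinf1, a secreted serpin, was 10.98, 130.01, 19.9 and 30.1 against 365, 485, 179.5 and 226 FPKM (log2 difference -3.20, SE 0.46, adjusted p = 0.0127). Mmp3 (stromelysin) was 18.7, 189, 18.8 and 17.4 against 399.6, 711, 223 and 128 FPKM (log2 difference -3.14, SE 0.39, adjusted p = 0.0107). Its control day 14 SSEA1+ level lay above the Dppa2/4 day 14 Thy1+ level, so the gates overlapped although each pair differed downward. Mmp13, a collagenase, differed by -2.94 and Mmp10 by -1.75. Mmp10 did not pass without control day 8, control day 14 or Dppa2/4 day 14 (adjusted p up to 0.0789).

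The letters TGAGTCA, the response element of AP-1 (Fos and Jun dimers) known from such protease promoters, occurred in 3 of the 13 protease and inhibitor promoters at hand (23.1%). The share was 5.17% of all promoters and 3.58% of those of tested genes. It was not particular to lowered lists: 4 of 20 epithelial junction and polarity promoters held the letters (20.0%). In the other matrix lists 1 of 13 collagen promoters (7.69%) and 0 of 14 glycoprotein and proteoglycan promoters did. They stood in 4.83% of promoters of genes called lower and 2.79% of those called higher. The 3 stretches, with the letters or their reverse complement in capitals, are a description. A link to the AP-1 genes given after them was not tested.
Mmp3, chr9:7445764-7445794, plus strand: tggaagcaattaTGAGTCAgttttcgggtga
Mmp10, chr9:7502267-7502297, plus strand: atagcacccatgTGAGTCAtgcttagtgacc
Mmp13, chr9:7272467-7272497, plus strand: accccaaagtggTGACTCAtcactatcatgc
Of 15 AP-1 and immediate early genes tested, 6 were lower (2, 1, 3 and 5 with each pair left out in turn) and 0 higher, with a median of -0.99. Fosl2, a Fos family member, was 2.11, 10.2, 7.02 and 19.3 against 32.2, 32.5, 37.8 and 47.1 FPKM (log2 difference -2.13, SE 0.37, adjusted p = 0.017) and kept its call without any pair. Junb was 1.98, 10.3, 4.12 and 5.58 against 21.97, 48.7, 4.49 and 21.5 FPKM (log2 difference -1.74, SE 0.45, adjusted p = 0.039), nearly level in Dppa2/4 day 8. Junb did not pass without control day 8, control day 14 or Dppa2/4 day 14 (adjusted p up to 0.113).

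All 15 contractile and actin-binding genes tested were lower (12, 12, 14 and 13 with each pair left out in turn), with a median of -1.95. Acta2, smooth muscle actin, was 39.4, 156, 39.1 and 49.9 FPKM in SSEA1+ and 877, 913, 252 and 404 in Thy1+ cells (log2 difference -3.16, SE 0.33, adjusted p = 0.0101), and Actg2 was 18.2, 93.3, 27.001 and 17.6 against 431, 643, 114 and 200.3 FPKM (log2 difference -3.19, SE 0.39, adjusted p = 0.0105). For both genes no SSEA1+ library reached any Thy1+ library. Of 20 mesenchymal surface genes, 17 were lower (14, 14, 17 and 17 with each pair left out in turn) and 0 higher, with a median of -1.73. Cd34, a sialomucin, was 24.99, 122, 26.4 and 30.8 against 382, 752, 356 and 307 FPKM (log2 difference -3.37, SE 0.24, adjusted p = 0.0091). Cav1, the coat protein of caveolae, was 5.21, 63.6, 30.03 and 114 against 218, 394, 317 and 630.4 FPKM (log2 difference -3.39, SE 0.45, adjusted p = 0.0115), with day 14 above day 8 in each arm and gate. The growth factor receptors Pdgfra and Pdgfrb differed by -1.84 and -3.11.

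Surface genes used in the field to stage reprogramming split in direction. Of 8 tested, 4 were higher (1, 1, 4 and 3 with each pair left out in turn) and 1 lower. Kit, the stem cell factor receptor, was 20.2, 17.5, 5.75 and 14.3 against 3.23, 0.335, 1.47 and 0.866 FPKM (log2 difference 2.65, SE 0.39, adjusted p = 0.0133). Pecam1, which appears late, was 1.86, 18.3, 1.06 and 9.06 against 0.0696, 0.545, 0.164 and 0.723 FPKM (log2 difference 2.11, SE 0.47, adjusted p = 0.0278), and both day 14 SSEA1+ libraries exceeded both day 8 ones. Cd24a and Itga6 were higher by 1.20 and 1.33, and Itgb4 was lower at -1.38. Icam1, Cd200 and Prom1 did not pass, at -0.77, -0.71 and 0.41. Pecam1 and Itgb4 did not pass without control day 8, control day 14 or Dppa2/4 day 14 (adjusted p up to 0.0746). Cd24a and Itga6 did not pass without control day 8 or control day 14 (adjusted p up to 0.0748).

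Genes of the TGF-beta pathway, which holds cells in the mesenchymal state, were lower. Of 20 tested, 14 were lower (11, 10, 13 and 12 with each pair left out in turn) and 0 higher, with a median of -1.34. Among ligands, Tgfb3 was 1.07, 6.50, 5.35 and 5.25 FPKM in SSEA1+ and 36.8, 30.2, 30.99 and 35.1 in Thy1+ cells (log2 difference -2.78, SE 0.37, adjusted p = 0.0116), and Tgfb1 differed by -1.80. Among receptors, Tgfbr2 and Tgfbr3 were lower (log2 differences -2.27 and -2.54), while Tgfbr1 at -0.39 did not pass. The target Tgfbi, a matrix protein, was 9.52, 35.4, 28.4 and 17.3 against 307, 253, 163 and 104 FPKM (log2 difference -3.16, SE 0.42, adjusted p = 0.0115). The feedback inhibitor Smad7 was at 0.03 and the corepressor Skil at 0.70, and neither passed.

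Of 15 BMP pathway and Id genes tested, 2 were higher (0, 0, 1 and 1 with each pair left out in turn) and 7 lower (2, 2, 4 and 3 with each pair left out in turn), with a median of -0.93. The Id genes, whose proteins block bHLH factors, went both ways: Id4 and Id2 were higher (log2 differences 1.13 and 0.78) and Id3 and Id1 lower (log2 differences -1.97 and -0.95). Id3 was 25.6, 40.3, 24.6 and 13.9 FPKM against 86.8, 196, 39.6 and 141. Bmp1, a procollagen protease despite its name, was 4.75, 15.9, 8.81 and 9.10 against 52.6, 49.1, 26.3 and 30.7 FPKM (log2 difference -1.98, SE 0.33, adjusted p = 0.0157). Id4 and Id3 did not pass without control day 8 or control day 14 (adjusted p up to 0.0739). Id2 did not pass whichever of the 4 pairs was left out (adjusted p up to 0.104). Id1 did not pass without control day 8, control day 14 or Dppa2/4 day 14 (adjusted p up to 0.102).

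In the Wnt pathway 10 of 17 genes tested were lower (7, 8, 9 and 7 with each pair left out in turn) and 1 higher, with a median of -1.40. The 10 included the secreted antagonists Dkk3, Dkk2, Sfrp1, Sfrp2 and Sfrp4 and the receptors Fzd1, Fzd2 and Fzd7. Dkk3 was 1.27, 13.7, 2.69 and 14.4 FPKM against 29.2, 60.8, 48.1 and 107 (log2 difference -3.09, SE 0.32, adjusted p = 0.0101), and Wisp2, a matricellular protein, 1.89, 10.99, 0.894 and 1.94 against 54.04, 52.4, 11.8 and 20.6 FPKM (log2 difference -3.01, SE 0.35, adjusted p = 0.0101). Tcf7, a nuclear effector, was the gene that was higher, at 8.15, 19.8, 15.8 and 17.6 against 1.20, 2.31, 7.60 and 8.45 FPKM (log2 difference 1.66, SE 0.34, adjusted p = 0.0227). Of 15 FGF pathway genes, 2 were lower (3, 2, 3 and 2 with each pair left out in turn) and 0 higher, with a median of -0.18. The 2 were the ligands Fgf2 and Fgf7 (log2 differences -2.15 and -1.95). Over all genes tested 13.5% were lower, so this count does not set the FGF list apart. Fgf4, the ligand made by pluripotent cells, is counted among the pluripotency genes and was 47.7, 70.3, 15.4 and 39.9 against 4.94, 5.54, 9.41 and 5.73 FPKM (log2 difference 2.44, SE 0.46, adjusted p = 0.0198). Tcf7 did not pass without control day 8 or control day 14 (adjusted p up to 0.0761). Fgf4 did not pass without control day 8 or Dppa2/4 day 14 (adjusted p up to 0.0672).

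In the IGF axis 1 of 8 genes was higher (1, 1, 1 and 1 with each pair left out in turn) and 5 were lower (4, 5, 5 and 5). Igfbp2, a binding protein that sequesters IGF, was 74.4, 479, 55.3 and 216 FPKM in SSEA1+ and 9.96, 14.7, 3.69 and 31.7 in Thy1+ cells (log2 difference 3.51, SE 0.39, adjusted p = 0.0101). Its relatives Igfbp4, Igfbp6, Igfbp3 and Igfbp7 were lower, at -2.71, -2.58, -2.53 and -2.42, as was the receptor Igf1r at -1.50. Of 13 retinoid genes 4 were lower (3, 4, 5 and 4 with each pair left out in turn) and 0 higher (0, 0, 1 and 1). Rdh10, which makes retinal, was 5.87, 11.8, 19.96 and 28.9 against 83.5, 69.6, 83.1 and 70.4 FPKM (log2 difference -2.34, SE 0.37, adjusted p = 0.0152). Cyp26b1, which degrades retinoic acid, differed by -2.46, and the binding proteins Crabp1 and Crabp2 by -1.70 and -1.44. Igfbp7 and Crabp1 did not pass without control day 8 (adjusted p up to 0.0587).

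Cell cycle genes were higher in SSEA1+ cells. The difference was larger in the control arm, but the dependence on arm, tested below, passed for 0 of these genes. Of 23 mitosis genes, 22 were higher (8, 7, 23 and 17 with each pair left out in turn) and 0 lower, with a median of 1.51. Ccnb1, the mitotic cyclin B1, was 174, 106, 118 and 97.6 FPKM in SSEA1+ and 28.6, 17.3, 58.8 and 17.96 in Thy1+ cells (log2 difference 2.12, SE 0.30, adjusted p = 0.0124), and the spindle checkpoint kinase Bub1 54.99, 38.5, 32.1 and 55.5 against 8.25, 4.51, 18.1 and 8.02 (log2 difference 2.22, SE 0.37, adjusted p = 0.0155). Of 23 DNA replication genes, 20 were higher (0, 2, 12 and 17 with each pair left out in turn) and 0 lower, with a median of 1.42. Mcm10 was 83.4, 50.3, 50.02 and 29.5 against 9.07, 4.21, 22.7 and 8.34 FPKM (log2 difference 2.29, SE 0.40, adjusted p = 0.017), and Gins1, part of the replicative helicase, 43.5, 29.98, 30.5 and 17.3 against 6.53, 3.44, 16.6 and 7.002 (log2 difference 1.85, SE 0.38, adjusted p = 0.0229). In the Dppa2/4 day 8 pair the Thy1+ levels of these 4 genes were the highest of their gate and the differences the smallest of the 4 pairs. By pair, the replication median was 2.09, 2.00, 0.84 and 0.64 and the mitosis median 2.01, 1.85, 0.68 and 1.33. Bub1 and Mcm10 did not pass without control day 8 (adjusted p up to 0.0557). Gins1 did not pass without control day 8 or control day 14 (adjusted p up to 0.076).

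Of 11 CDK inhibitors and D and E cyclins, 6 were lower (3, 3, 4 and 3 with each pair left out in turn) and 1 higher. Cyclin D1, which couples growth factor signals to the cycle, was 58.7, 75.1, 94.3 and 40.1 FPKM for Ccnd1 against 169, 233, 272 and 214 (log2 difference -1.76, SE 0.20, adjusted p = 0.0101), and Ccnd2 differed by -1.52. The inhibitors Cdkn2b, Cdkn2c, Cdkn2a and Cdkn1a were lower, at -1.82, -1.17, -1.16 and -0.79. Cdkn2a was 23.2, 69.3, 26.8 and 29.7 FPKM against 71.2, 216, 25.6 and 85.8, level in Dppa2/4 day 8. Ccne1, which drives entry into S phase, was higher at 168, 64.9, 71.7 and 30.9 against 25.7, 24.4, 41.7 and 17.3 FPKM (log2 difference 1.40, SE 0.34, adjusted p = 0.0339). Of 13 genes for p53 and its targets 2 were higher (1, 1, 1 and 2 with each pair left out in turn) and 1 lower (1, 0, 1 and 1). These were Trp53 at 0.78 and the apoptosis gene Pmaip1 at 1.56, against Phlda3 at -0.91. Over all genes tested 10.6% were higher and 13.5% lower, so these counts do not set the p53 list apart. Cdkn2c and Cdkn1a did not pass whichever of the 4 pairs was left out (adjusted p up to 0.133). Cdkn2a and Ccne1 did not pass without control day 8, control day 14 or Dppa2/4 day 14 (adjusted p up to 0.142). Trp53 did not pass without control day 8, control day 14 or Dppa2/4 day 8 (adjusted p up to 0.178). Phlda3 did not pass without control day 14 (adjusted p = 0.0651).

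Immune signalling genes of fibroblasts were lower. Of 13 cytokine and chemokine genes tested, 8 were lower (8, 7, 7 and 9 with each pair left out in turn) and 0 higher, with a median of -2.09. Il1rl1, the receptor for interleukin-33, was 6.72, 33.1, 5.56 and 22.3 FPKM in SSEA1+ and 142, 158, 90.02 and 98.8 in Thy1+ cells (log2 difference -3.08, SE 0.40, adjusted p = 0.0112), and the chemokine gene Ccl7 13.9, 55.2, 63.8 and 67.5 against 274, 367, 339 and 309.6 (log2 difference -2.87, SE 0.35, adjusted p = 0.0104). Of 18 interferon response genes, 9 were lower (4, 6, 8 and 5 with each pair left out in turn) and 0 higher, with a median of -1.09. Isg15, a ubiquitin-like protein, was 0.215, 2.03, 18.2 and 4.55 against 3.70, 5.46, 70.3 and 36.4 FPKM (log2 difference -1.92, SE 0.29, adjusted p = 0.0138), with both gates higher in the Dppa2/4 arm and the difference downward in each pair. Of 8 genes of MHC class I presentation, 6 were lower (3, 1, 5 and 1 with each pair left out in turn) and 0 higher. B2m, the invariant chain, was 68.2, 198, 121 and 246 against 383, 477, 479 and 449.8 FPKM (log2 difference -1.64, SE 0.28, adjusted p = 0.0168), without overlap. H2-D1 differed by -1.58 and H2-K1, which did not pass, by -0.53, but these closely related genes may share reads. H2-D1 did not pass without control day 14 or Dppa2/4 day 14 (adjusted p up to 0.0776).

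Of 21 glycolysis genes, 3 were higher (1, 1, 3 and 2 with each pair left out in turn) and 2 lower (0, 0, 1 and 0 with each pair left out in turn), with a median of 0.09. Slc2a3, a high-affinity glucose transporter, was 1152, 1602, 504 and 1189.8 FPKM in SSEA1+ and 121, 171, 217 and 221 in Thy1+ cells (log2 difference 2.52, SE 0.36, adjusted p = 0.0124), without overlap and called whichever pair was left out. Slc2a1 and the hexokinase gene Hk2 were higher (log2 differences 1.06 and 0.87), and Hk1 and Eno3 lower (log2 differences -0.89 and -1.38). Of 21 respiratory chain genes 3 were higher (0, 0, 1 and 2 with each pair left out in turn) and 0 lower, with a median of 0.31. Over all genes tested 10.6% were higher and 13.5% lower, so these counts set neither list apart. Of 14 genes of one-carbon and serine-glycine metabolism, 8 were higher (4, 3, 8 and 8 with each pair left out in turn) and 1 lower, with a median of 1.19. Gldc, of the glycine cleavage system, was 27.98, 41.7, 15.2 and 16.3 against 0.375, 0.856, 3.14 and 3.29 FPKM (log2 difference 3.22, SE 0.53, adjusted p = 0.0154), and its partner Amt 40.2, 55.8, 36.1 and 34.5 against 1.57, 4.16, 14.8 and 19.4 (log2 difference 2.37, SE 0.58, adjusted p = 0.034). The Thy1+ levels of both were higher in the Dppa2/4 arm. Slc2a1 and Amt did not pass without control day 8 or control day 14 (adjusted p up to 0.0957). Hk2 and Eno3 did not pass without control day 8, control day 14 or Dppa2/4 day 14 (adjusted p up to 0.121). Hk1 did not pass whichever of the 4 pairs was left out (adjusted p up to 0.0857).

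Among 12 DNA methylation and Tet genes, 6 were higher (4, 3, 6 and 5 with each pair left out in turn) and 1 lower. Dnmt3b, a de novo methyltransferase, was 66.8, 18.98, 10.02 and 6.49 FPKM against 1.54, 0.797, 2.49 and 1.29 (log2 difference 2.90, SE 0.55, adjusted p = 0.0199), highest in the control day 8 SSEA1+ library. Tet1, which oxidises methylcytosine, was 27.8, 15.8, 7.08 and 12.5 against 0.861, 0.884, 1.47 and 0.997 FPKM (log2 difference 2.89, SE 0.37, adjusted p = 0.0112). Uhrf1, the partner of the maintenance enzyme, differed by 1.86 and Dnmt1 itself by 0.95. Mbd2, a methyl-CpG reader, was lower (log2 difference -1.01). Of 18 Polycomb genes, 7 were higher (2, 1, 7 and 5 with each pair left out in turn) and 1 lower: Jarid2 was 83.8, 47.5, 35.9 and 63.95 against 9.42, 5.44, 17.9 and 9.04 FPKM (log2 difference 2.40, SE 0.37, adjusted p = 0.0139), and the core subunits Ezh2, Eed and Suz12 differed by 1.72, 1.32 and 1.38. Of 21 other chromatin regulators 9 were higher (1, 1, 9 and 4 with each pair left out in turn) and 3 lower (0, 0, 2 and 1 with each pair left out in turn). Wdr5, a scaffold of histone methyltransferases, was 199, 115, 113 and 78.5 against 52.3, 34.2, 52.7 and 29.1 FPKM (log2 difference 1.53, SE 0.19, adjusted p = 0.0107). Smarca2 and Smarcd3, subunits of BAF complexes of differentiated cells, were lower (log2 differences -1.43 and -1.45). Dnmt1, Ezh2, Eed and Smarca2 did not pass without control day 8 or control day 14 (adjusted p up to 0.105). Mbd2 did not pass without control day 8, control day 14 or Dppa2/4 day 8 (adjusted p up to 0.129). Suz12 and Smarcd3 did not pass without control day 8, control day 14 or Dppa2/4 day 14 (adjusted p up to 0.0919).

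**Figure D3:**
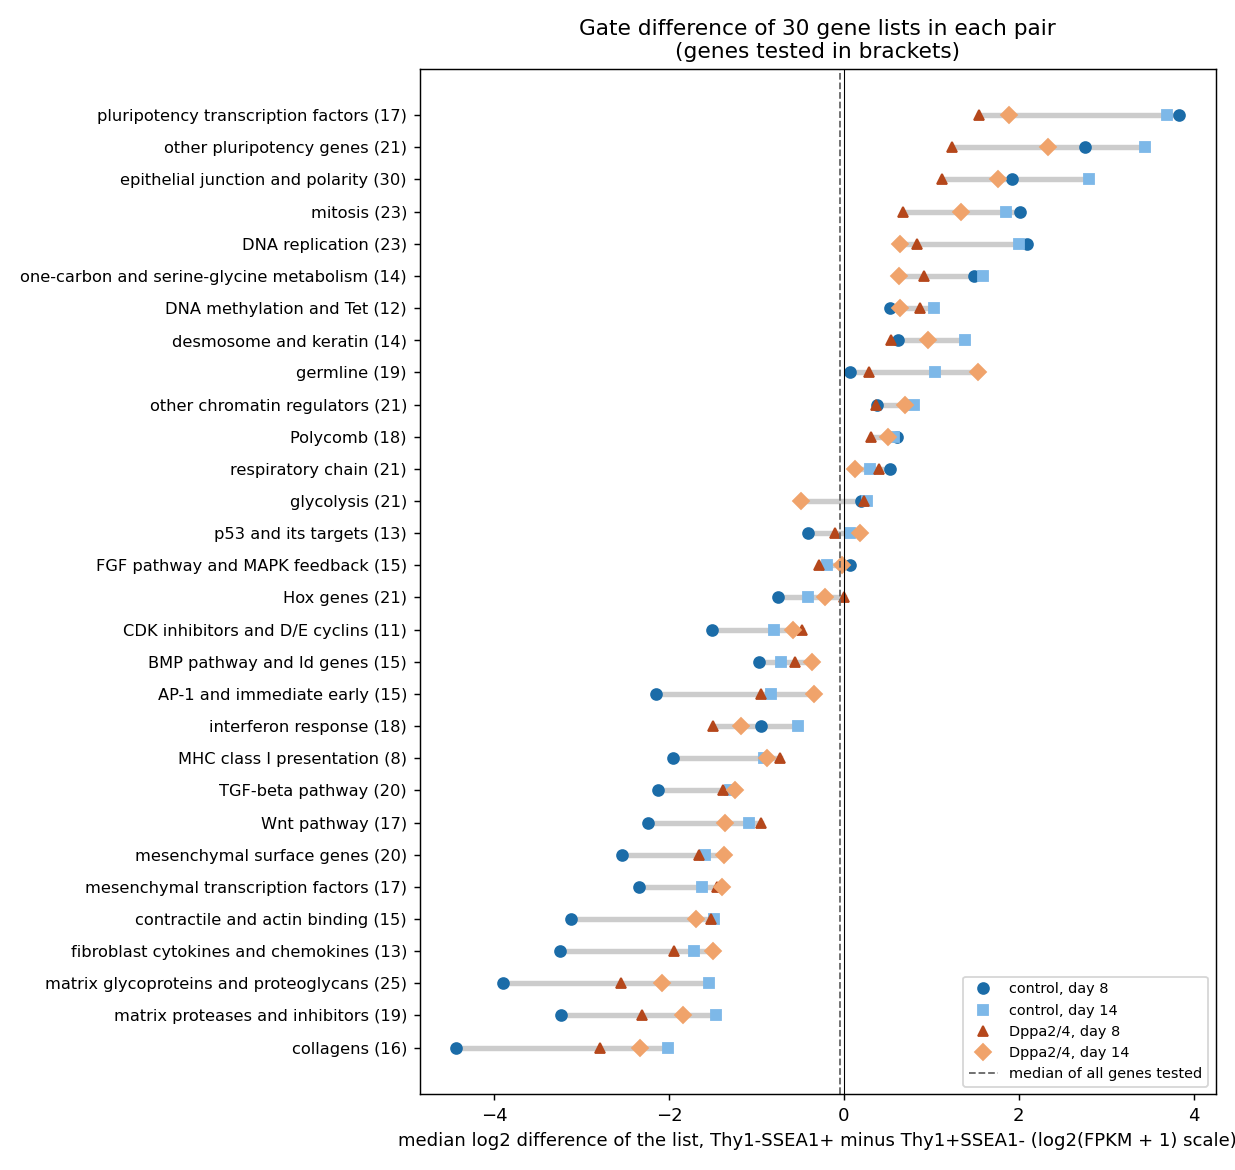
Median log2 difference between the gates for each gene list (x axis) in each of the 4 pairs, with the number of genes tested in brackets and the dashed line at the median of all genes (log2 difference -0.04). Pluripotency, epithelial and cell cycle lists lie to the right in all pairs and matrix and mesenchymal lists to the left, with control day 8 farthest left for the collagens (log2 difference -4.44).

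Germline genes were higher in part. Of 19 tested, 5 were higher (3, 2, 6 and 3 with each pair left out in turn) and 0 lower, with a median of 0.82, and the 5 were Tex19.1, Syce2, Tdrd12, Piwil2 and Tdrd5. Tex19.1, a germline gene known to be silenced by DNA methylation elsewhere, was 5.79, 19.5, 50.6 and 32.8 FPKM in SSEA1+ and 0.231, 0.328, 10.2 and 8.99 in Thy1+ cells (log2 difference 2.59, SE 0.37, adjusted p = 0.0126), with both gates higher in the Dppa2/4 arm. Only 2 of the 13 2-cell-like genes matched were high enough to be tested, and 0 passed in limma, with 1 at an unadjusted p below 0.05. Of 21 Hox genes on the list, which record the position of the fibroblasts in the body, 4 were lower (0, 0, 3 and 1 with each pair left out in turn) and 0 higher, with a median of -0.30. Over all genes tested 13.5% were lower. Hoxa10 was 13.3, 13.3, 27.4 and 22.1 against 46.3, 52.5, 34.2 and 36.2 FPKM (log2 difference -1.16, SE 0.31, adjusted p = 0.0424). The list leaves out 8 other Hox genes that were tested, mostly posterior ones, and 4 of these were lower and 0 higher. Hoxd13 was 2.96 against 20.7 FPKM on average (log2 difference -2.44, SE 0.32, adjusted p = 0.0115) and passed whichever pair was left out, and Hoxa11, Hoxd12 and Hoxa13 differed by -1.57, -1.43 and -1.33. These 4 were named after their values were seen, and reads of Hoxa11 and its antisense gene cannot be told apart without strand. Hoxa11 did not pass without control day 14, Hoxd12 without either control pair, or Hoxa13 without control day 8, control day 14 or Dppa2/4 day 8 (adjusted p up to 0.106). Of 14 imprinted genes 2 were higher (2, 2, 2 and 2 with each pair left out in turn) and 2 lower (1, 1, 1 and 2). Against 10.6% higher and 13.5% lower over all genes tested, these counts do not set the imprinted list apart. Peg10, a gene of retroviral origin needed in placenta, was 185, 70.5, 44.4 and 36.1 against 27.7, 4.82, 4.87 and 3.20 FPKM (log2 difference 3.10, SE 0.21, adjusted p = 0.0091), without overlap, and Peg3 differed by 1.57. Ndn and Igf2r were lower at -1.65 and -1.29. Hoxa10 did not pass without control day 8, control day 14 or Dppa2/4 day 14 (adjusted p up to 0.142). Igf2r did not pass without control day 8, control day 14 or Dppa2/4 day 8 (adjusted p up to 0.0862).

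Some genes of other lineages were higher at low levels. Krt17, a keratin of stratified epithelium, was 11.9, 9.63, 2.998 and 3.15 FPKM in SSEA1+ cells against 0.289, 0.099, 0.229 and 0.736 in Thy1+ cells (log2 difference 2.39), and Krt6a was 2.35, 2.69, 0.8293 and 3.74 against 0.126, 0.0128, 0.111 and 0.159 FPKM (log2 difference 1.55). Of 5 epidermal genes tested 3 were higher (0, 2, 2 and 3 with each pair left out in turn), the other being Krt14 at 0.90. Trp63, the regulator of basal epidermis, lay the other way at 0.119, 0.418, 0.138 and 0.108 against 1.13, 1.20, 0.461 and 0.367 FPKM and did not pass (log2 difference -0.56, SE 0.20, adjusted p = 0.0892). Elf5, a factor of trophoblast stem cells, was 4.69, 7.48, 1.31 and 3.37 FPKM against 0.13, 0.0429, 0.134 and 0.301 (log2 difference 2.03), and Eomes was 2.14, 3.02, 0.822 and 2.96 against 0.116, 0.12, 0.258 and 0.531 (log2 difference 1.31). These were the 2 genes higher (0, 1, 2 and 1 with each pair left out in turn) of 6 trophoblast genes tested. Of the 6 immune, 5 endothelial and 2 muscle markers tested 0 passed in limma, and 0, 1 and 1 of them had an unadjusted p below 0.05. Krt17, Krt6a and Elf5 did not pass without control day 8 (adjusted p up to 0.0555). Krt14 did not pass without control day 8, control day 14 or Dppa2/4 day 8 (adjusted p up to 0.0698). Eomes did not pass without control day 8, control day 14 or Dppa2/4 day 14 (adjusted p up to 0.0737).

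Several of the largest differences lay outside the lists. Trh, the precursor of thyrotropin-releasing hormone, was 722, 269, 205 and 63.6 FPKM in SSEA1+ and 5.66, 13.4, 5.73 and 3.11 in Thy1+ cells (log2 difference 4.98, SE 0.46, adjusted p = 0.0101), falling from day 8 to day 14 in the SSEA1+ cells of both arms. Gpx2, a glutathione peroxidase of epithelia, was 9.99, 18.6, 41.3 and 66.2 against 0.15, 0.122, 0.68 and 0.893 FPKM (log2 difference 4.30, SE 0.33, adjusted p = 0.00985), higher in the Dppa2/4 arm in both gates. S100a14 and Fam25c, chosen after their values were seen, differed by 3.76 and 3.60. Downward, Prelp, a matrix proteoglycan, was 2.11, 48.1, 3.37 and 7.24 against 184, 437, 85.3 and 212 FPKM (log2 difference -4.51, SE 0.42, adjusted p = 0.0101), and Il1rn, the interleukin-1 receptor antagonist, 13.6, 59.1, 17.6 and 12.3 against 821, 479, 282 and 237 (log2 difference -4.23, SE 0.43, adjusted p = 0.0101). Mgp, an inhibitor of calcification and among the most abundant genes of Thy1+ cells, was 117, 1062, 222 and 352 against 3315, 6749.7, 3026 and 3546 FPKM (log2 difference -3.64, SE 0.34, adjusted p = 0.0101). Loxl3, Defb1 and Tnfrsf11b, also chosen after their values were seen, differed by -3.73, -3.72 and -3.64. All of these genes kept their calls whichever pair was left out. The rule for the largest differences also picked short RNA genes, whose FPKM rests on few fragments. Mir425 was listed at 0 in all SSEA1+ libraries and at 38.5, 31.2, 36.7 and 43.7 FPKM in Thy1+ cells. Multiplied by the implied depth, the Thy1+ values were nearly equal. That would be the case with 1 fragment in each library, but the counts themselves are not known. Mir3074-1, a 5S_rRNA gene, AC158299.1, a U1 gene, a U6 gene and Gm6020 were picked in the same way and are not described further here.

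Whether the gate difference depended on the arm was tested as an interaction. It was called for 13 genes as higher (0.0855%) and 9 as lower (0.0592%) in the Dppa2/4 arm, with 702 at an unadjusted p below 0.05. Of the 22, 20 were short RNAs or had no annotated type, and the 2 protein-coding genes were Dppa2 and Apoc1. With protein-coding genes tested alone, 1 gene was called as higher, Gsta3, and 3 as lower, Apoc1, Dppa4 and Dppa2. Dppa2 was 14.1, 11.4, 123 and 114 FPKM in SSEA1+ and 0.149, 0.271, 175 and 171 in Thy1+ cells, and Dppa4 8.10, 28.6, 156 and 125 against 0.259, 0.591, 201 and 232. In the control arm both genes were thus above 5 FPKM in SSEA1+ cells and below 1 in Thy1+ cells. In the Dppa2/4 arm, where virus also supplies them, both gates were higher than in the control arm and Thy1+ cells the higher of the pair. Gsta3, a glutathione transferase, was 5.35, 8.95, 29.4 and 37.0 FPKM in SSEA1+ cells and 14.2, 12.7, 3.79 and 3.22 in Thy1+ cells, so its direction differed between arms. Apoc1, an apolipoprotein, was 33.8, 164, 92.4 and 147.9 FPKM in SSEA1+ cells and 0.581, 7.06, 50.1 and 94.0 in Thy1+ cells, a larger difference in the control arm.

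No other list gene was called by arm, and the differences of several lists were nearer 0 in the Dppa2/4 arm. All 17 pluripotency transcription factors, 18 of 21 other pluripotency genes and all 46 replication and mitosis genes had a lower difference in the Dppa2/4 than in the control arm, against 44.0% of all genes tested. That share covers genes of either direction, and the share among all genes higher in SSEA1+ cells was not counted. A difference nearer 0 was also seen in 27 of 30 epithelial and 14 of 14 one-carbon genes, and in 10 of 19 germline genes. The median pluripotency factor differed by 3.80 between gates in the control arm and by 1.77 in the Dppa2/4 arm. For replication the medians were 2.01 and 0.82, and for collagens -3.18 and -2.58. The collagen medians of the single pairs were -4.44 and -2.01 in the control arm and -2.78 and -2.33 in the Dppa2/4 arm, so that on day 14 the control pair was nearer 0. All 15 AP-1 and immediate early genes were less lowered there, with medians of -1.49 and -0.58. Interferon response genes went the other way, with 13 of 18 more lowered and medians of -0.74 and -1.24. Nanog differed by 5.96, 5.15, 4.47 and 3.72 in the 4 pairs, with an arm term of -1.46 (SE 0.49, adjusted p = 0.99), and Sall4 by 5.46, 4.85, 3.29 and 2.71, with a term of -2.15 (SE 0.48, adjusted p = 0.714). In 2 libraries per arm such terms did not pass, which does not show that the arms were alike. By day, 7 genes were called as higher (0.0461%) and 3 as lower (0.0197%), with 775 at an unadjusted p below 0.05. The only protein-coding one was Gm6020, with an annotated exon length of 66 bases, and 0 list genes were called. With a pseudocount of 0.1 the calls were 4 and 1 by arm and 4 and 1 by day, and with Dppa2/4 day 14 left out they were 0 in each.

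**Figure D4:**
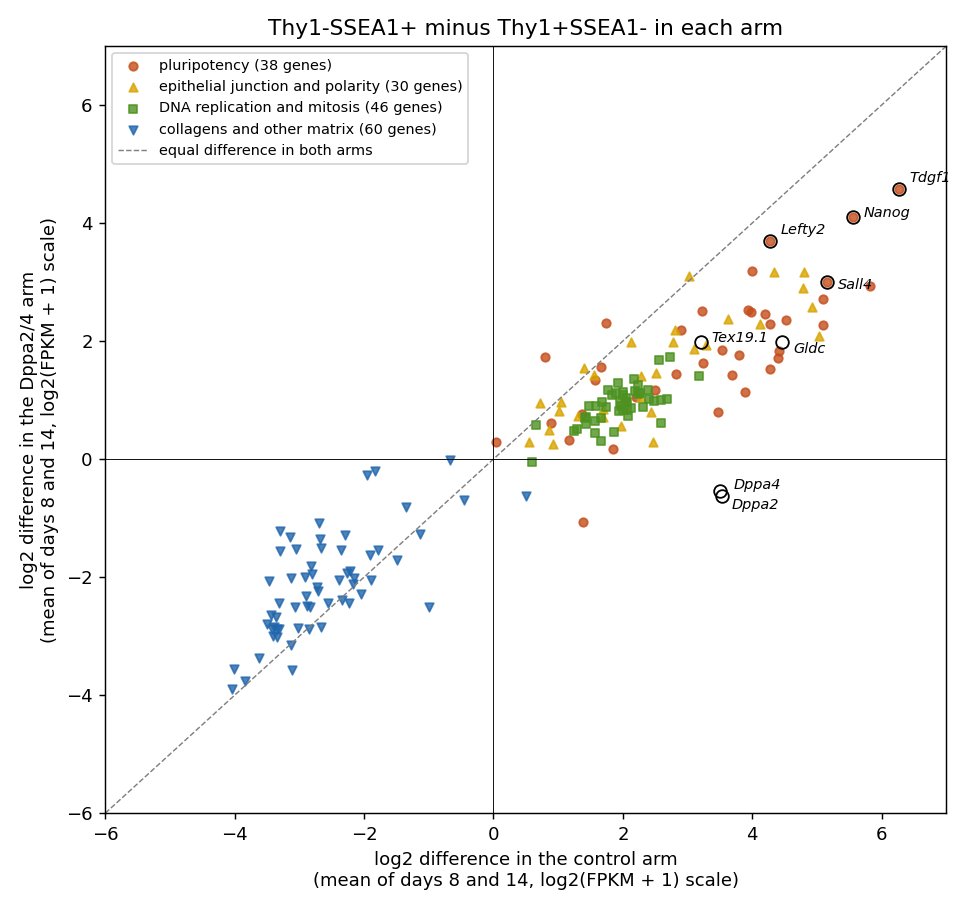
Gate difference in the control arm (x axis) against that in the Dppa2/4 arm (y axis) for genes of the pluripotency, epithelial, cell cycle and matrix lists, each the mean of days 8 and 14 on the log2(FPKM + 1) scale. Of the pluripotency genes 35 of 38, and of the cell cycle genes all 46, have a difference nearer 0 in the Dppa2/4 arm, and Dppa2 and Dppa4 lie below 0 on the y axis. The share nearer 0 among all genes tested was not counted.

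The place of SSEA1+ cells between other gates was read from 5 combinations of arm and day for each comparison. The description of the control day 11 GFP+ library names another gate, and it was used as titled. Those comparisons reuse SSEA1+ libraries of the main one, so only their own values are given. Against Thy1- cells without SSEA1, 1456 of 15249 genes were higher in SSEA1+ cells (9.55%) and 1884 lower (12.4%), with a median of 0.01 over all genes. Of 17 pluripotency factors 13 were higher there, of 30 epithelial genes 25, of 23 mitosis genes 22 and of 16 collagens 12 were lower. Nanog ranged from 10.9 to 29.4 FPKM among Thy1-SSEA1- cells and differed by 2.74 (SE 0.13, adjusted p = 0.00125), Cdh1 was 19.96 to 61.97 FPKM there and differed by 1.43 (SE 0.15, adjusted p = 0.00464), and Col1a1 121 to 405 FPKM with -2.94 (SE 0.40, adjusted p = 0.00667). The Nanog levels there lay above all 4 Thy1+ and below all 4 SSEA1+ libraries. Without control day 8, control day 11 and Dppa2/4 day 8 the higher calls numbered 655, 459 and 819 and the lower calls 1016, 797 and 999.

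In GFP+ cells, which have switched on the endogenous Pou5f1 reporter, 2988 of 15347 genes were higher than in SSEA1+ cells (19.5%) and 3975 lower (25.9%), with a median of -0.06. The counts were 1965 and 2583 without Dppa2/4 day 11. Pluripotency factors were higher still, 16 of 17, with a median of 1.95: Nanog reached 259.8 to 360.3 FPKM and differed by 1.31 (SE 0.19, adjusted p = 0.00293), and Zfp42 reached 78.8 to 146 FPKM and differed by 3.28 (SE 0.45, adjusted p = 0.00268). Tfap2c, at 28.7 to 48.7 FPKM, was the factor that did not pass (log2 difference 0.54, SE 0.30, adjusted p = 0.18). Matrix genes were lower still, with 15 of 16 collagens lower and a median of -1.85.

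Epithelial genes were not broadly higher still. In GFP+ against SSEA1+ cells 1 of 30 junction and polarity genes was higher and 11 were lower, with a median of -0.33, so that most did not pass. Of 14 desmosome and keratin genes 0 were higher and 12 lower, with a median of -1.34. Over all genes tested there, 19.5% were higher and 25.9% lower. Cdh1 stayed level at 96.8 to 127 FPKM, a difference of 0.02 (SE 0.10, adjusted p = 0.91). Krt19 was 23.4 to 183 FPKM in the 4 SSEA1+ libraries of the main comparison and 1.30 to 10.3 in GFP+ cells (log2 difference -3.69, SE 0.28, adjusted p = 0.000913). Krt8 was 65.6 to 223 and 6.85 to 22.97 (log2 difference -3.10, SE 0.39, adjusted p = 0.00212). These SSEA1+ ranges include control day 8 and no day 11, whereas the log2 differences include day 11 and not control day 8. Pkp1, a desmosomal plaque protein, fell to 0.0547 to 0.367 FPKM (log2 difference -2.83, SE 0.23, adjusted p = 0.001), and Dsp to 1.94 to 6.41 (log2 difference -2.22, SE 0.29, adjusted p = 0.00225). Cd24a, higher in SSEA1+ than in Thy1+ cells, was lower in GFP+ cells, at 13.9 to 41.7 FPKM (log2 difference -2.66, SE 0.12, adjusted p = 0.000502). S100a14 and Gpx2, both higher in SSEA1+ than in Thy1+ cells, were also lower in GFP+ than in SSEA1+ cells (log2 differences -3.51 and -1.50). Both were picked for large differences in the main comparison, whose SSEA1+ libraries are partly reused here, which favours a lower value in another gate. Most genes went the other way: of 1606 called higher in SSEA1+ cells and tested here, 1002 were higher in GFP+ cells and 96 lower. Hox genes were lower in GFP+ against SSEA1+ cells in 20 of 21, with a median of -1.43.

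**Figure D5:**
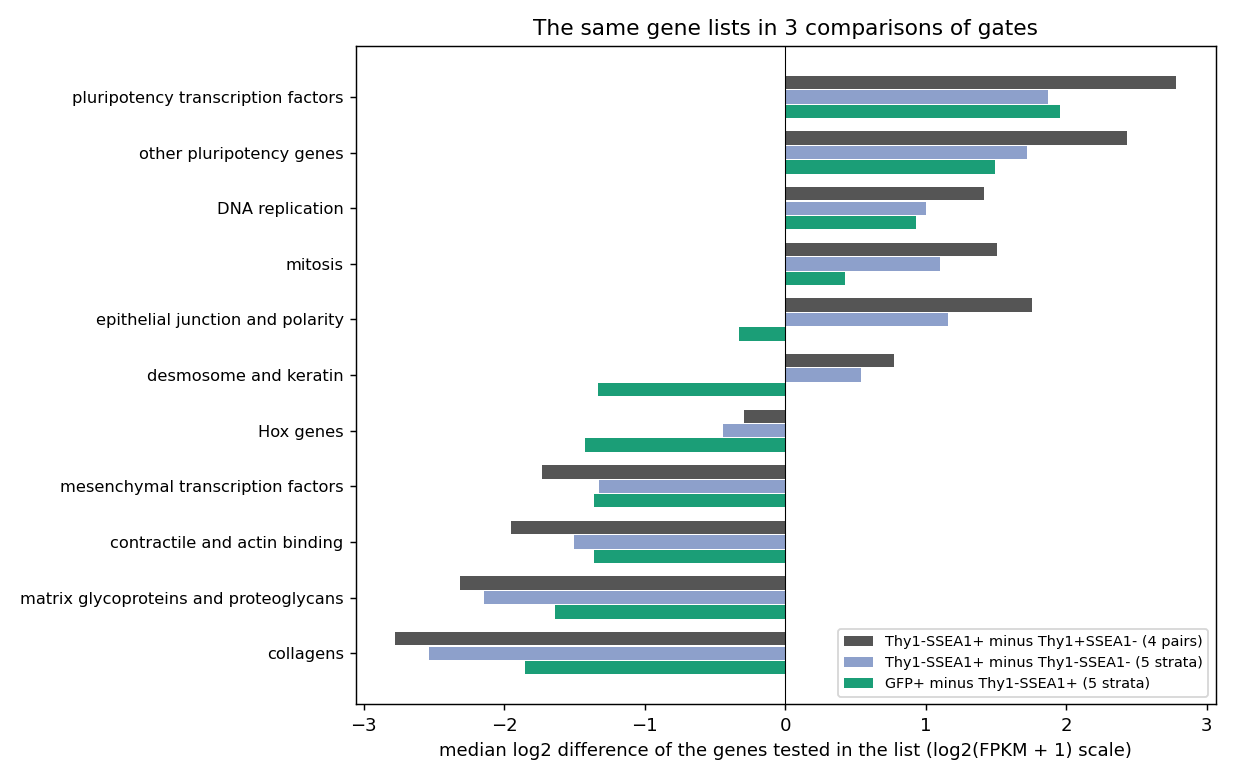
Median log2 difference of gene lists (x axis) in the comparison of SSEA1+ with Thy1+ cells, of SSEA1+ with Thy1-SSEA1- cells and of GFP+ with SSEA1+ cells. Pluripotency lists have positive bars in all comparisons and collagens negative ones. The epithelial and the desmosome and keratin bars are positive for SSEA1+ cells and negative for GFP+ against SSEA1+ cells (-0.33 and -1.34). The comparisons hold different combinations of arm and day.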

How the data were processed

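RNA was measured as polyA transcripts in sorted cells, and the 8 libraries compared hold 1 library per arm, day and gate. The deposited table gives the authors' FPKM values per gene, made with TopHat2 and Cuffdiff on mm10 per the submitters' processing notes. Their versions, the annotation, strand handling and library normalization are not given in the sources used here. The table lists 37973 genes, of which 32933 carried a GENCODE vM21 identifier, and 3 of its 33 value columns were not used. Depth was inferred from the smallest steps of the deposited FPKM values.

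Values were tested as log2(FPKM + 1) with limma 3.58.1 in R 4.3.3 (linear model with the pair as a block, empirical Bayes with trend, 2-sided, Benjamini-Hochberg adjustment over all genes tested, threshold 0.05). Genes needed an FPKM of at least 1 in at least 2 of the 8 libraries. Arm and day dependence were interaction terms. Samples of the same arm and day, as titled, form a pair, and their deviations from the gate means correlated at 0.35, 0.35, 0.14 and 0.30, each highest with its own partner. The fit was tried on simulated data over the 15196 genes of the main comparison. In them 200 genes with a mean log2 level above 2 were changed and all others had no gate difference. There it recovered 20% of genes changed by 1, 72% by 2 and 90% by 3 on the log2 scale, with 3 false calls. The main comparison called 1607 genes higher and 2049 lower, so the simulated rates need not hold for it.

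The members, the 46 gene lists (714 genes) and the tests were chosen with earlier results of these data known. Named genes were the 2 highest and 2 lowest called genes of each list, the 10 highest and 10 lowest over all genes, the 5 highest and lowest by arm and by day, and a set of sorting, reprogramming, pluripotency, epithelial and mesenchymal genes. Other list members given as values were chosen after their values were seen, and some members are not reported here by name. Promoters (250 bases before to 50 after the first start of a symbol) and microRNAs came from RefSeq on GRCm38.p6, and gene coordinates from GENCODE vM21 on GRCm38. Alternatives were another pseudocount, other filters, quantile and median scaling, no trend, other blocks, single arms and days, and each pair left out.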

Additional observations from a re-analysis of the deposited data

Results flagged for a closer look

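In 12 of 151 genes whose 4 pair differences were tried, 1 pair lay farther from the other 3 than Dixon's 95% critical value for 4 values, where chance gives about 5%. The Dppa2/4 day 8 pair was the lowest for the cell cycle genes Bub1 (0.797) and Ccnb1 (0.993) and for the Polycomb gene Jarid2 (0.963), whose other 3 pairs lay at 2.38 or above. The control day 8 pair was the lowest for the matrix gene Tgfbi (log2 difference -4.87), the procollagen protease gene Bmp1 (log2 difference -3.22) and the laminin gene Lama1 (0.747). The Dppa2/4 day 14 pair was the lowest for Klf4 (0.179), Ccnd1 (log2 difference -2.39) and Fam25c (log2 difference 2.07). Among short genes, the control day 14 pair was the lowest for a U6 gene (log2 difference 1.59) and the highest for Mir290 (log2 difference 1.00), and Dppa2/4 day 8 was the highest for AC158299.1 (-0.0978).

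The gate difference differed between arms by the interaction term for the genes below with a mean of at least 5 FPKM. It was higher in the Dppa2/4 arm for snoU105B (log2 difference 12.46), SNORD36 (log2 difference 10.31), a U6 gene (log2 difference 9.99), Snord4a (log2 difference 6.91) and a SNORD113 gene (log2 difference 6.47). It was lower there for AC105169.1 (log2 difference -6.35), AC163023.1 (log2 difference -6.18), AC153877.1 (log2 difference -6.03), Mir29b-2 (log2 difference -5.19) and AL645988.1 (log2 difference -4.91). Between days it was higher on day 14 for another SNORD113 gene (log2 difference 14.55), Mir1957 (log2 difference 8.24), Mir199a-1 (log2 difference 7.35), snoU2_19 (log2 difference 6.14) and Mir704 (log2 difference 5.82), and lower for AL683882.1 (log2 difference -6.06), AC166933.1 (log2 difference -6.02) and Gm6020 (log2 difference -5.54). All but Gm6020, a protein-coding gene with a short annotated exon length, are short RNAs or have no annotated type. Most of these genes were listed at 0 in several of the 8 libraries, and their values rest on few fragments.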

How the results depend on the processing

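No gene called in the main comparison was called in the other direction under any alternative. Its counts of 1607 higher and 2049 lower genes were 0 and 0 with no filter (7430 at an unadjusted p below 0.05), 736 and 1057 with no replicate block, 3094 and 3205 with all libraries of OSKM cells fitted together, 50 and 179 on day 8 alone, 906 and 939 on day 14 alone, 324 and 626 in the Dppa2/4 arm alone, and 310 to 1562 and 696 to 1803 with each pair left out. With the pseudocount at 0.1, 124 genes were at least 4-fold higher in every pair and 149 lower. At the main pseudocount these counts were 39 and 75, and leaving out a pair gave 43 to 125 and 78 to 133. For the 13 and 9 genes called by arm the counts were 4 and 1 with a pseudocount of 0.1, 0 and 0 with no filter, 4 and 1 at a mean of at least 5 FPKM, 1 and 3 among protein-coding genes alone, and 0 to 20 and 0 to 10 with each pair left out. For the 7 and 3 by day they were 4 and 1, 0 and 0, 4 and 1, 0 and 1, and 0 to 1 in both directions. List members numbered 66 to 156 higher and 137 to 174 lower with each pair left out, against 168 and 199. Against GFP+ cells leaving out an arm and day gave 1965 to 2709 and 2583 to 3699, and against Thy1-SSEA1- cells 459 to 1378 and 797 to 1929. The cause of these shifts was not tested, beyond the fewer samples or genes that some settings hold. 2 short genes not called in the main comparison reversed: snoU105B was -6.10 in the control arm alone and a SNORD113 gene 7.03 on day 14 alone. Quantile and median scaling, no trend and additive arm and day terms kept the main counts within 1.5 times. The 4 pairs are the limit on precision, since each rests on 1 library per gate and gene levels near 1 FPKM rest on few fragments.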

Other observations

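Markers of nerve, fat, cartilage, bone and endoderm gave calls in both directions. Of 7 neural and glial markers tested 2 were lower in SSEA1+ cells, S100b at -0.85 and Nes at -0.66. Of 5 extraembryonic endoderm markers Lama1, a laminin chain, was higher (18.1, 10.6, 12.1 and 8.47 FPKM against 10.4, 5.10, 5.87 and 4.05), and the endocytic adaptor gene Dab2 and the receptor gene Pth1r were lower (log2 differences -1.73 and -0.99). Of 5 markers of fat, cartilage and bone Fabp4, a fatty acid carrier, was lower at 0.481, 8.74, 0.333 and 4.68 FPKM against 7.03, 36.2, 4.14 and 19.3 (log2 difference -2.04), and it kept its call without any pair. Alpl, on the same list as an enzyme of bone and also a pluripotency list gene, was higher (log2 difference 2.54). S100b and Nes did not pass whichever of the 4 pairs was left out (adjusted p up to 0.18). Lama1 did not pass without control day 8 or control day 14 (adjusted p up to 0.12). Dab2 did not pass without control day 14 or Dppa2/4 day 14 (adjusted p up to 0.0727). Pth1r did not pass without control day 8, control day 14 or Dppa2/4 day 14 (adjusted p up to 0.0959).

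CCGGAAG, a motif bound by ETS factors, stood on either strand in 20.1% of promoters of genes called higher, 8.15% of those called lower and 17.3% of those of all genes tested. TGCAAAT, 7 bases of the octamer that Pou5f1 binds, stood in 2.43% of promoters of genes called higher, 2.96% of those called lower and 2.73% of those of all genes tested. Windows of 300 bases around a start do not cover enhancers, and these shares were not tested.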
